A study of Macaca mulatta with 8 samples.

Results

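NR3C1, NR3C2, ESR1, THRA, THRB, RORA, RORB and VDR are 8 genes of the nuclear receptor family, which encode the receptors for corticosteroids, estrogen, thyroid hormone and vitamin D and 2 related orphan-type receptors. They were chosen by symbol, and all 8 (in the order above ENSMMUG00000000421, ENSMMUG00000014955, ENSMMUG00000019045, ENSMMUG00000002931, ENSMMUG00000000067, ENSMMUG00000018192, ENSMMUG00000012571 and ENSMMUG00000006727) were found among the 21748 genes of the count matrix. Nuclei of male rhesus macaques came from 2 groups of 4 samples each. The control samples were aliquots of 1 pool of tissue from 2 untreated animals, and the sevoflurane samples were aliquots of 1 pool that held tissue of 1 animal. That animal had inhaled the anaesthetic sevoflurane at about 2.5% to 3% for 4 hours on each of 3 occasions, the first at about postnatal day 7 and the later ones given in the labels as 14 and 28 days, without saying whether these are ages or intervals. The labels call the tissue hippocampus in one field and amygdala in another, and the sources used here do not give the ages of the control animals. No source used here ties the 8 libraries of the matrix, numbered 1 to 8 by a barcode suffix, to the 8 samples. The matrix was therefore treated as 1 sample, no comparison of sevoflurane with control was made, and no p-value was computed.

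Nuclear receptors are transcription factors that hormone binding switches on or retargets at DNA elements near their target genes. Cortisol acts in the brain through the mineralocorticoid receptor (NR3C2), which binds it tightly and is known for its abundance in the hippocampus, and through the lower-affinity glucocorticoid receptor (NR3C1). Thyroid hormone acts through THRA and THRB, usually bound to DNA as partners of RXR proteins, and is required for myelination and for the maturation of the perinatal brain. RORA and RORB bind ROR elements, are linked to the circadian clock, and are known for roles in cerebellar and cortical or retinal development.

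After filters on depth and doublets 54644 nuclei were kept, 5015 to 8931 per library, and 51780 of them fell into 16 marker-defined classes. The median count per nucleus was 3189 to 3426 unique molecular identifiers (UMIs) in libraries 1 to 4 and 5730 to 5831 in libraries 5 to 8. The libraries stood apart in makeup too: neurons were 49.9% of nuclei in libraries 1 and 2, 29.7% in libraries 3 and 4 and 71.4% in libraries 5 to 8. Of 19 excitatory clusters, 17 drew over 90% of their nuclei either from libraries 1 to 4 or from libraries 5 to 8, so the same class is often held by different clusters in libraries 1 to 4 and 5 to 8. In all, 860 of the 59749 barcodes (1.44%) had a sequence that occurred in more than 1 library, with 8 to 32 sequences shared by a pair of libraries. Classes carry the name of their markers. Granule-like neurons (3103 nuclei, clusters 6 and 22) resemble dentate gyrus granule cells and had 2944 counts per 1000000 UMIs (CPM) summed over 10 granule markers, against 188 CPM in CA-like neurons (3223 nuclei, clusters 9 and 14). CA-like neurons resemble pyramidal cells of the hippocampal CA fields and had 2253 CPM over 13 CA markers, against 924 CPM in granule-like neurons. MGE-like and CGE-like inhibitory neurons carry markers of interneurons born in the medial and caudal ganglionic eminences. Both hippocampal markers and excitatory clusters that lack them were thus present, and the tissue could not be narrowed down further.

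Levels are given as CPM of all UMIs of a class, with a 95% exact Poisson interval that covers counting error only, and with the spread over libraries that held at least 50 nuclei of the class. Levels of 1 gene were compared between classes and not between genes, since transcript lengths were not used. UMI ratios of 2 receptors are given only to compare classes. A gene was called different between classes if its summed level differed by 2-fold or more, with 10 CPM or more in the higher class, and if every library with 50 nuclei of both classes had the same direction. Neighbouring classes in the order of a gene's levels were said not to differ where fewer than all of at least 3 shared libraries had one direction. In tissue-wide terms, NR3C2 had a UMI in 57.2% of kept nuclei, THRB in 55.3%, NR3C1 in 42.0%, RORA in 24.0%, THRA in 21.3%, RORB in 15.9%, ESR1 in 8.88% and VDR in 0.902%, shares that move with depth and capture as well as with the level.

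**Figure D1:**
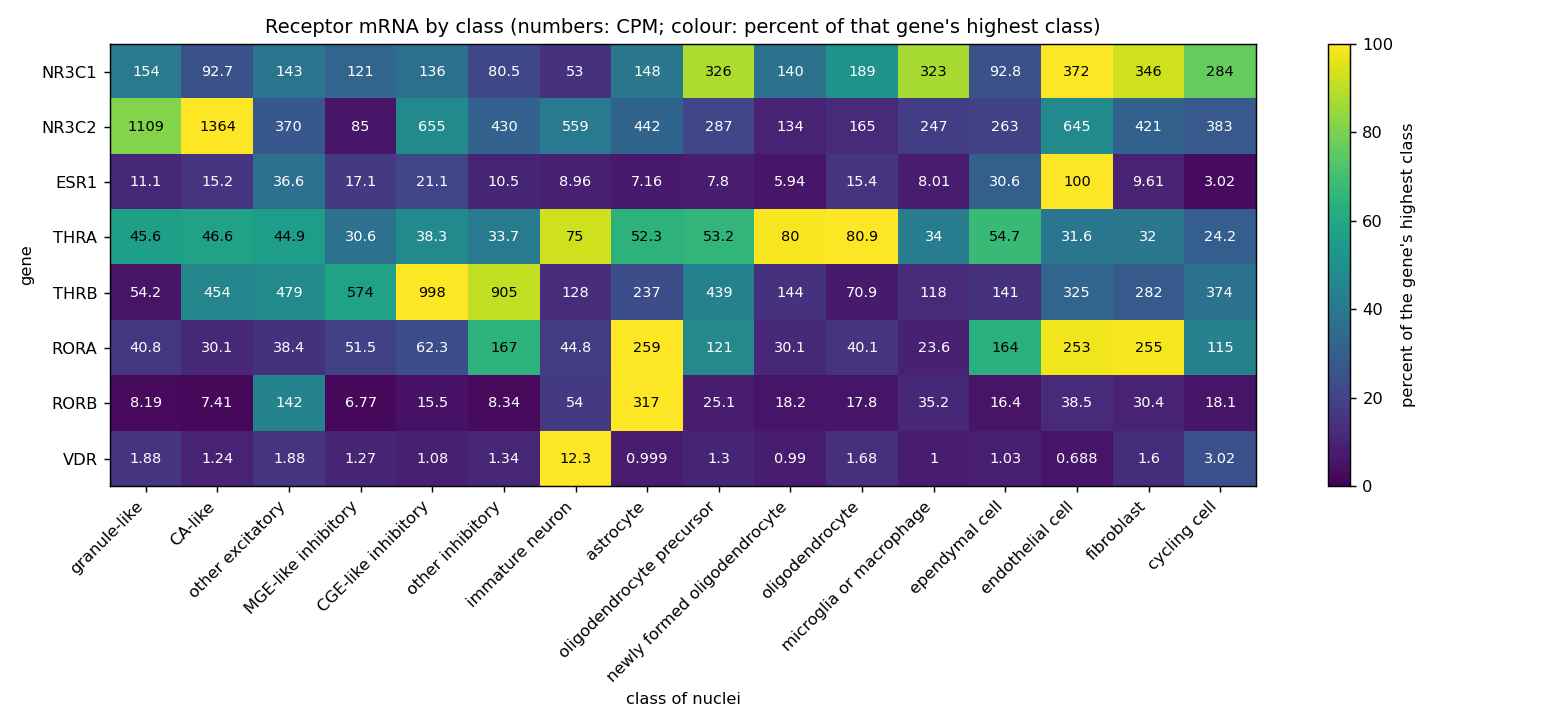
Level of each receptor mRNA (rows) in each of the 16 classes (columns), with the number in each cell giving CPM over all libraries and the colour giving the percentage of that gene's own highest class. NR3C2 peaks in CA-like (1364 CPM) and granule-like (1109 CPM) neurons, THRB in CGE-like inhibitory neurons (998 CPM), RORA and RORB in astrocytes (259 and 317 CPM), and THRA varies least.

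The receptors differed in how widely they were spread over classes. THRA had a 3.35-fold range between its highest and lowest class and NR3C1 a 7.02-fold range, and both reached 10 CPM in all 16 classes. RORA spanned 10.9-fold, NR3C2 16-fold and THRB 18.4-fold, also above 10 CPM in all 16. RORB spanned 46.8-fold and reached 10 CPM in 12 classes, and ESR1 spanned 33.3-fold and reached it in 9. VDR reached it in 1 class, immature neurons.

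Neurons and non-neuronal nuclei differed in 3 of the 8 receptors by the calling rule, where 11.9% of the 10387 genes measured were called higher in neurons, 18.7% higher in non-neuronal nuclei and 30.5% in either direction. THRB and ESR1 were higher in neurons, and RORA was higher in non-neuronal nuclei. Excitatory and inhibitory neurons differed in 2 of the 8, RORB and RORA, against 12.5% of 9468 genes (6.1% higher in excitatory and 6.4% in inhibitory neurons). Granule-like and CA-like neurons differed in 1 of the 8, THRB, higher in CA-like neurons, against 11.5% of 9267 genes (5.67% higher in granule-like and 5.86% in CA-like neurons). Granule-like and immature neurons differed in 4 of the 8 (NR3C1, THRB, RORB and VDR), in the 4 libraries that held both, against 25.2% of 10044 genes (8.24% higher in granule-like and 17% in immature neurons). MGE-like and CGE-like inhibitory neurons differed in 2 of the 8, NR3C2 and RORB, both higher in CGE-like neurons, against 8.28% of 9411 genes (3.64% higher in MGE-like and 4.63% in CGE-like neurons). Oligodendrocytes and their precursors differed in 2 of the 8, THRB and RORA, both higher in precursors, against 20.6% of 9517 genes (8.08% higher in oligodendrocytes and 12.5% in precursors). Astrocytes and oligodendrocytes differed in 4 of the 8 (NR3C2, THRB, RORA and RORB), all higher in astrocytes, where 16.2% of 9883 genes were called higher in astrocytes, 8.64% in oligodendrocytes and 24.8% in either direction. Endothelial cells and fibroblasts differed in 1 of the 8, ESR1, higher in endothelial cells, in the 1 library with 50 nuclei of both, against 29.9% of 10592 genes (10.8% higher in endothelial cells and 19.1% in fibroblasts). With 8 genes in each comparison, none of these counts says that the receptors as a family stood apart from other genes.

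NR3C2, the mineralocorticoid receptor gene, was highest in the hippocampus-like excitatory neurons. In CA-like neurons it stood at 1364 CPM (1352–1377), with a lowest library of 818 CPM, a median of 1180 and a highest of 2082. In granule-like neurons it stood at 1109 CPM (1095–1123), with 972, 1022 and 1384 CPM as lowest, median and highest library. The ranges of these classes overlap, and the pair does not differ in the order of levels, since CA-like neurons were higher in 4 of 8 libraries. Granule-like neurons were above the next class, CGE-like inhibitory neurons at 655 CPM, in 8 of 8 libraries. Endothelial cells (645 CPM) did not differ from CGE-like neurons. They were followed by immature neurons (559 CPM), which were above astrocytes (442 CPM) in all 4 shared libraries. At the low end came microglia or macrophages (247 CPM), oligodendrocytes (165 CPM), newly formed oligodendrocytes (134 CPM) and MGE-like inhibitory neurons (85.0 CPM), and each of the first 3 was above the next in every shared library.

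Within the granule-like and CA-like classes libraries 1 to 4 and libraries 5 to 8 gave opposite orders for the corticosteroid receptors. In libraries 1 to 4 NR3C2 stood at 1078, 1039, 1384 and 1370 CPM in granule-like neurons and at 1492, 1448, 2082 and 2013 CPM in CA-like neurons, where cluster 6 held nearly all of the granule-like and cluster 14 nearly all of the CA-like nuclei. In libraries 5 to 8, where clusters 22 and 9 did, it stood at 972, 1000, 978 and 1006 CPM in granule-like neurons and at 882, 913, 818 and 883 CPM in CA-like neurons. NR3C2 was thus 1.60-fold higher in CA-like neurons in the first set of libraries and 1.13-fold higher in granule-like neurons in the second. NR3C1, the glucocorticoid receptor gene, went the other way. In granule-like neurons it stood at 177, 166, 254 and 240 CPM in libraries 1 to 4 and at 39.0, 46.9, 46.8 and 54.4 CPM in libraries 5 to 8. In CA-like neurons it stood at 116, 104, 112 and 106 CPM in libraries 1 to 4 and at 74.6, 73.5, 75.7 and 81.1 CPM in libraries 5 to 8. NR3C1 was 1.78-fold higher in granule-like neurons in the first set, 1.64-fold higher in CA-like neurons in the second, and was called in neither set. In libraries 3 and 4 alone NR3C1 was 2.27-fold higher in granule-like neurons and passed the rule. All libraries summed, NR3C1 was 1.66-fold higher in granule-like neurons (1.58–1.74) with 4 of 8 libraries in each direction. Depth, cluster and library set move together here, and what part each has in the reversal cannot be told apart.

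**Figure D2:**
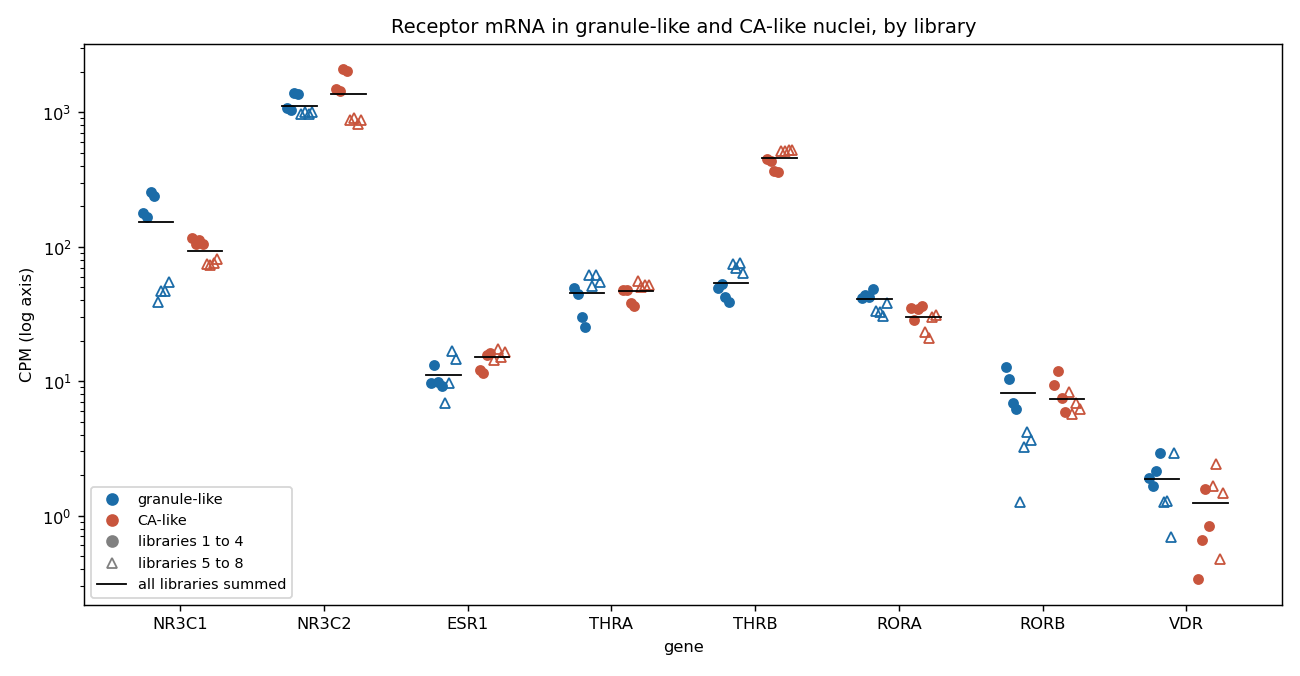
Level of each receptor (CPM, log axis) in granule-like (blue) and CA-like (red) nuclei, 1 point per library, filled circles for libraries 1 to 4, open triangles for libraries 5 to 8 and a black line for all libraries summed. THRB parts the classes in every library (38.7 to 76.1 against 358 to 522 CPM), while the order of NR3C1 and of NR3C2 turns between libraries 1 to 4 and 5 to 8.

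Among the 19 excitatory clusters NR3C2 fell into a high and a low set. The widest gap in its levels was 3.72-fold, between 122 and 454 CPM. The 8 clusters above it had a median of 1071 CPM and the 11 below it a median of 80.5 CPM. The high set was made up of the granule-like and CA-like clusters (6, 22, 9 and 14) and of clusters 15, 21, 26 and 41, which carry neither name. These last had 1202, 454, 1576 and 750 CPM. NR3C1 did not part the same sets: its medians were 92.8 CPM in the high set and 137 CPM in the low set, with ranges of 38.9 to 194 and 53.4 to 538 CPM. The lowest NR3C2 and the highest NR3C1 of all excitatory clusters met in cluster 42 (116 nuclei, all from libraries 5 to 8), at 26.2 and 538 CPM. Over the 19 clusters the log2 levels of both genes had a Pearson r of −0.51 and a Spearman rho of −0.36. This is a description over clusters that share libraries and depth.

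**Figure D3:**
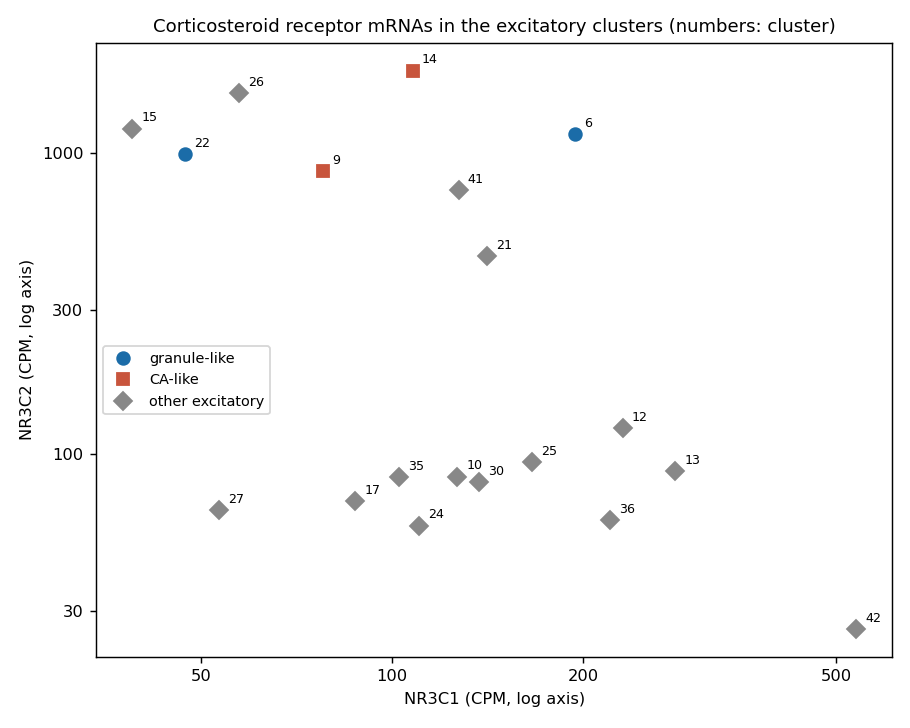
NR3C1 (horizontal, CPM, log axis) against NR3C2 (vertical, CPM, log axis) in the 19 excitatory clusters, with blue circles for granule-like, red squares for CA-like and grey diamonds for other excitatory clusters and the cluster number beside each point. A band between 122 and 454 CPM of NR3C2 holds no cluster, and cluster 42 stands alone at 538 CPM of NR3C1.

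Among inhibitory neurons NR3C2 parted the MGE-like from the CGE-like class. MGE-like neurons (clusters 11 and 20) had a lowest library of 67.6 CPM, a median of 86.1 and a highest of 97.2. CGE-like neurons (clusters 8 and 32) had 614, 638 and 704 CPM. The libraries of the classes do not overlap, and NR3C2 was 7.70-fold higher in CGE-like neurons (7.30–8.13) in 8 of 8 libraries. By cluster, NR3C2 stood at 717 and 500 CPM in clusters 8 and 32 and at 86.9 and 82.2 CPM in clusters 11 and 20. Of the inhibitory clusters with neither name, cluster 23, led by RELN, had 654 CPM, cluster 28, led by NOS1 among others, had 307 CPM and cluster 38 had 103 CPM. With each nucleus thinned to 2000 UMIs, a UMI of NR3C2 was seen in 15% of MGE-like nuclei (exact 95% interval 13.7%–16.5%) and in 64.3% of CGE-like nuclei (62.3%–66.1%), against 38.3% and 81.7% without thinning. The 6 MGE markers summed to 4722 CPM in MGE-like and 185 CPM in CGE-like neurons, and 10 astrocyte markers to 381 CPM (337 to 425 by library) and 750 CPM (671 to 812), with 1 and 0 of them at 0. The part of other cells' RNA in the NR3C2 ratio was not tested. NR3C1 did not differ between these classes, at 121 and 136 CPM, with CGE-like neurons higher in 6 of 8 libraries.

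Among the 16 classes NR3C1 was highest in 4 non-neuronal ones, although excitatory cluster 42, at 538 CPM, was above all of them. Endothelial cells had 372 CPM (341–405), fibroblasts 346 CPM (301–395), oligodendrocyte precursors 326 CPM (315–338) and microglia or macrophages 323 CPM (308–340). Precursors and microglia did not differ, with 3 of 6 libraries in each direction, and endothelial cells and fibroblasts shared 1 library only. Non-neuronal nuclei as a whole were 1.59-fold above neurons in 8 of 8 libraries (206 against 129 CPM), short of the 2-fold rule. Immature neurons were the lowest class at 53.0 CPM, with 51.9, 50.3, 54.9 and 64.0 CPM in libraries 1 to 4. They were below the other inhibitory class, the next in order at 80.5 CPM, in 4 of 4 libraries. Single clusters of other classes were lower than the immature class. Excitatory cluster 15 had 38.9 CPM and inhibitory cluster 23 had 51.4 CPM. Granule-like cluster 22, nearly all from libraries 5 to 8, had 47.2 CPM. NR3C1 was 2.90-fold higher in granule-like than in immature neurons (2.53–3.34; 4 of 4 libraries) in the sums over all libraries, and 3.65-fold higher in libraries 1 to 4, which hold nearly all immature nuclei. Libraries 5 to 8 gave a log2 ratio of 0.10 with under 50 immature nuclei in each, and there the call ended.

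With nuclei thinned to 2000 UMIs, both corticosteroid receptor mRNAs were seen in a minority of nuclei of each neuron class examined. Both were seen in 19.1% of granule-like nuclei (17.7%–20.5%) and 12.6% of CA-like nuclei (11.4%–13.7%), and NR3C2 alone in 64.8% and 69.1%. In MGE-like neurons both were seen in 3.28% and NR3C1 alone in 17.5%. In CGE-like neurons both were seen in 16.1% and NR3C2 alone in 48.2%. In astrocytes both were seen in 12.9% and NR3C2 alone in 39.5%. A missing UMI at this depth does not show that a nucleus lacks the mRNA. Without thinning NR3C1 was seen in 48.1% of granule-like and 51.4% of CA-like nuclei, and NR3C2 in 96.8% and 98.0%. The share with both is thus larger at full depth in these 2 classes.

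ESR1, which encodes estrogen receptor alpha, was highest by class in endothelial cells. The 3 libraries with 50 endothelial nuclei gave 93.2, 122 and 48.1 CPM, and the sum 100 CPM (84.8–118 from 146 UMIs). All 3 were above the other excitatory neurons, next in order at 36.6 CPM (25.8 lowest, 36.1 median and 49.4 highest library). Against fibroblasts (9.61 CPM from 6 UMIs) the ratio was 10.5-fold with an interval of 4.69 to 28.9. The 1 library with 50 nuclei of both classes, library 6, had a log2 ratio of 2.62, against 3.39 in the sums. The log2 ratio of the sums was 3.17 to 3.77 over leaving out each library in turn, but without library 6 no library had 50 nuclei of both classes and there was no call. The endothelial clusters 39 and 43 had median doublet scores of 0.48 and 0.44, where 1 would mean that all neighbours are simulated doublets. They held 8391 CPM over 8 endothelial markers (6034 to 9573 by library, 0 of them at 0) against 128 CPM in fibroblasts, and 181 CPM over 8 excitatory markers. The part of doublets in the endothelial level was not tested. A UMI of ESR1 was seen in 14.8% of endothelial nuclei at 2000 UMIs (10.8%–19.6%; 21.0% without thinning) and in 1.26% of astrocytes (0.953%–1.64%; 1.55%), the class taken here as a background, with median depths of 2927 and 2122 UMIs.

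In neurons ESR1 varied over the 19 excitatory clusters, from 8.99 CPM (cluster 17) to 104 CPM (cluster 27), with a median of 19.4 CPM. Clusters 12, 24 and 30 had 69.8, 57.2 and 52.8 CPM. The 11 clusters of the low NR3C2 set had a median of 45.4 CPM (8.99 to 104). The 8 clusters of the high set had a median of 14.5 CPM (10.9 to 34.4). Granule-like neurons had 11.1 CPM and CA-like neurons 15.2 CPM, which did not differ (CA-like higher in 6 of 8 libraries). Neurons as a whole were 2.00-fold above non-neuronal nuclei (26.6 against 13.3 CPM; 1.86–2.16) in 8 of 8 libraries. That ratio sits on the threshold, and the call ended when library 1, 3, 5, 6, 7 or 8 was left out, with log2 ratios of 0.97 to 1.09 over the 8 leave-one-out settings. Of its 15 neighbour pairs in the order of levels 11 did not differ, 2 did and 2 shared under 3 libraries.

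By class THRB, which encodes thyroid hormone receptor beta, was highest in inhibitory neurons. Single clusters overlapped: excitatory ones ran from 47.8 CPM to 849 CPM (cluster 30), and inhibitory ones from 459 CPM (cluster 20) to 1079 CPM (cluster 8). CGE-like neurons had 998 CPM (982–1015; 859, 996 and 1056 as lowest, median and highest library) and the other inhibitory neurons 905 CPM (887–924), and these did not differ. Both were above MGE-like neurons at 574 CPM, which were above other excitatory neurons at 479 CPM, in 8 of 8 libraries. Other excitatory neurons did not differ from CA-like neurons (454 CPM), nor these from oligodendrocyte precursors (439 CPM). Inhibitory neurons as a whole were 1.88-fold above excitatory neurons (794 against 423 CPM) in 8 of 8 libraries, short of the 2-fold rule in all libraries and past it in libraries 1 to 4 alone. Neurons were 2.43-fold above non-neuronal nuclei (2.38–2.47) in 8 of 8 libraries, a call that ended in libraries 1 and 2 alone, with a log2 ratio of 0.98.

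Granule-like neurons had the least THRB mRNA of all classes. Its libraries gave 49.5, 52.7, 41.9 and 38.7 CPM (1 to 4) and 74.2, 69.5, 76.1 and 63.9 CPM (5 to 8), and its sum of 54.2 CPM (51.1–57.3) was the lowest of the 16. CA-like libraries ran from 358 to 522 CPM with a median of 483, so the classes do not overlap. THRB was 8.38-fold higher in CA-like neurons (7.90–8.90), with library log2 ratios of −3.21 to −2.78 for granule-like over CA-like. It was 8.14-fold higher in libraries 1 to 4 and 7.30-fold higher in libraries 5 to 8, each set with its own pair of clusters, and no setting tried ended the call. At 2000 UMIs, THRB was seen in 10.4% of granule-like nuclei (9.38%–11.6%) and in 55.1% of CA-like nuclei (53.4%–56.8%), against 28.5% and 92.6% without thinning. Markers of other cells differed between these classes as well: 8 inhibitory markers summed to 259 CPM in granule-like (167 to 311 by library, 0 of them at 0) and 132 CPM in CA-like neurons (122 to 153, 1 at 0). The 10 astrocyte markers, among them RYR3 that leads both CA-like clusters, summed to 1671 CPM (1305 to 1821, 1 at 0) and 3096 CPM (2389 to 3815, 0 at 0). Their part in the THRB ratio was not tested. Low THRB was not particular to granule-like clusters: cluster 26 had 74.8 CPM and cluster 42 had 75.0 CPM, near the 47.8 and 71.3 CPM of clusters 6 and 22. Immature neurons had 157, 112, 121 and 98.8 CPM in libraries 1 to 4, all above the granule-like level of the same library, and summed to a ratio of 2.35-fold (2.12–2.61), or 2.67-fold within libraries 1 to 4. That call ended without library 1 (log2 ratio −1.0 for granule-like over immature) and with trimmed-mean (TMM) scaling (−0.90).

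THRB was also lower in each later class of the oligodendrocyte lineage. Precursors had 439 CPM (415, 446 and 566 as lowest, median and highest library), newly formed oligodendrocytes 144 CPM (129 to 192 over 4 libraries) and oligodendrocytes 70.9 CPM (59.1, 93.3 and 109). The libraries of the 3 classes do not overlap. Precursors were 6.20-fold above oligodendrocytes (5.82–6.59) in 8 of 8 libraries. Astrocytes, at 237 CPM, were 3.35-fold above oligodendrocytes (3.15–3.56) in 8 of 8 libraries.

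THRA, which encodes thyroid hormone receptor alpha, was the most even of the receptors. It was highest in oligodendrocytes at 80.9 CPM (76.8–85.1), newly formed oligodendrocytes at 80.0 CPM and immature neurons at 75.0 CPM, and these 3 did not differ. The lowest class, cycling cells at 24.2 CPM, rested on 8 UMIs. Of its 15 neighbour pairs 12 did not differ, 1 did and 2 shared under 3 libraries, and no comparison called it in all libraries summed. Between granule-like and CA-like neurons it stood at 45.6 and 46.6 CPM, with an interval for granule-like over CA-like of 0.90 to 1.06. Its levels over the 19 excitatory clusters ran from 33.6 to 57.8 CPM, a 1.72-fold range, against 17.8-fold for THRB. Oligodendrocytes were 1.52-fold above their precursors (1.38–1.68) in 8 of 8 libraries, the direction opposite to THRB. The library log2 ratios ran from 0.41 to 2.12 with a median of 0.89. THRA was called there with libraries weighted equally and in libraries 5 to 8 alone. In libraries 5 to 8 it was also called higher in oligodendrocytes than in astrocytes. Equal weights called it between endothelial cells and fibroblasts, and libraries 3 and 4 alone between granule-like and immature neurons.

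Among the classes RORA was highest in astrocytes at 259 CPM (251–266; 216, 272 and 334 as lowest, median and highest library), fibroblasts at 255 CPM and endothelial cells at 253 CPM. Astrocytes were above fibroblasts in each of 3 shared libraries although their sums were alike. The fibroblast and endothelial clusters had the doublet scores given above, and the part of doublets in their RORA levels was not tested. Other inhibitory neurons followed at 167 CPM and ependymal cells at 164 CPM, which did not differ. Microglia or macrophages were lowest at 23.6 CPM. RORA was 6.45-fold higher in astrocytes than in oligodendrocytes (5.97–6.98) and 3.03-fold higher in oligodendrocyte precursors than in oligodendrocytes (2.76–3.32), each in 8 of 8 libraries and under all settings tried. Non-neuronal nuclei were 2.81-fold above neurons (129 against 45.9 CPM; 2.72–2.89) in 8 of 8 libraries. The non-neuronal level was 89.2 to 137 CPM in libraries 1 to 4 and 230 to 260 CPM in libraries 5 to 8. Astrocytes were 17.0% of nuclei in libraries 1 and 2, 11% in libraries 3 and 4 and 14.8% in libraries 5 to 8, and the part of class makeup in this sum was not tested. In libraries 3 and 4 alone the log2 ratio was −0.94 and not called. Inhibitory neurons were 2.25-fold above excitatory neurons (2.16–2.35) in 8 of 8 libraries. That call ended in libraries 1 to 4, 1 and 2, and 3 and 4 alone, and the smallest log2 ratio for excitatory over inhibitory neurons over all settings was −0.72. Cluster 38 had the highest RORA of the inhibitory clusters at 393 CPM, against 39.7 CPM in the lowest, cluster 11.

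Among the classes RORB was highest in astrocytes at 317 CPM (309–325), with 285, 320 and 380 CPM as lowest, median and highest library, above other excitatory neurons at 142 CPM in 8 of 8 libraries. Its astrocyte clusters 0 and 34, of libraries 1 to 4, had 321 and 146 CPM, and cluster 3, of libraries 5 to 8, had 342 CPM. In oligodendrocytes it stood at 17.8 CPM, with a library at 0, a median of 15.6 and a highest of 35.6 CPM. The ratio was 17.8-fold (15.9–19.9), with no overlap between libraries. At 2000 UMIs RORB was seen in 41.3% of astrocytes (39.8%–42.7%; 41.7% without thinning) and 3.35% of oligodendrocytes (2.85%–3.91%; 4.96%). Among excitatory neurons 1 cluster held most of it. This was cluster 10 (1682 nuclei, 72.5% of them from libraries 1 to 4). It had FOXP2 at 600 CPM, near cluster 25 (589 CPM), and CUX2 at 270 CPM, below cluster 13 (1109 CPM). Its RORB level was 901 CPM, the next clusters 13 and 12 had 143 and 122 CPM, and the median of 19 was 9.26 CPM. RORB is among the 10 genes that lead cluster 10, so this is a description of that cluster. Excitatory neurons were 9.91-fold above inhibitory neurons (9–10.9) in 8 of 8 libraries and in all settings tried. Granule-like and CA-like neurons had 8.19 and 7.41 CPM, both under the 10 CPM minimum. Immature neurons had 50.5, 57.9, 56.8 and 48.5 CPM in libraries 1 to 4, 6.59-fold above granule-like neurons in the sums (5.39–8.07) and 5.33-fold within these libraries, where the same libraries gave 12.7, 10.5, 6.84 and 6.25 CPM. CGE-like neurons were 2.29-fold above MGE-like neurons (15.5 against 6.77 CPM; 1.83–2.89) in 8 of 8 libraries, a call that ended with a 20 CPM minimum, without doublet removal and in libraries 5 to 8 alone.

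VDR, the vitamin D receptor gene, was near the limit of detection, with 511 UMIs in all kept nuclei. Immature neurons (cluster 7, 2085 nuclei) had 51 of them, 12.3 CPM (9.19–16.2), with 10.2, 9.55, 15.7 and 19.4 CPM in libraries 1 to 4. The same libraries gave 1.92, 1.65, 2.14 and 2.92 CPM in granule-like neurons, so the libraries do not overlap, and the ratio was 6.58-fold in the sums (4.28–10.2) and 5.88-fold within these libraries. No other class passed 3.02 CPM. At 2000 UMIs a UMI of VDR was seen in 2.04% of 881 immature nuclei (1.22%–3.21%), with 1204 shallower nuclei left out, and in 0.294% of granule-like nuclei (0.134%–0.557%) and 0.207% of astrocytes. Without thinning the shares were 2.16%, 1.26% and 0.232%. The call ended with a 20 CPM minimum, in libraries 1 and 2 alone, where immature neurons had 9.88 CPM, and in libraries 5 to 8. Cluster 7 lists PROX1, a granule lineage marker, among its leading genes, and held 894 CPM over 9 immature markers (1 at 0) against 156 CPM in granule-like neurons.

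**Figure D4:**
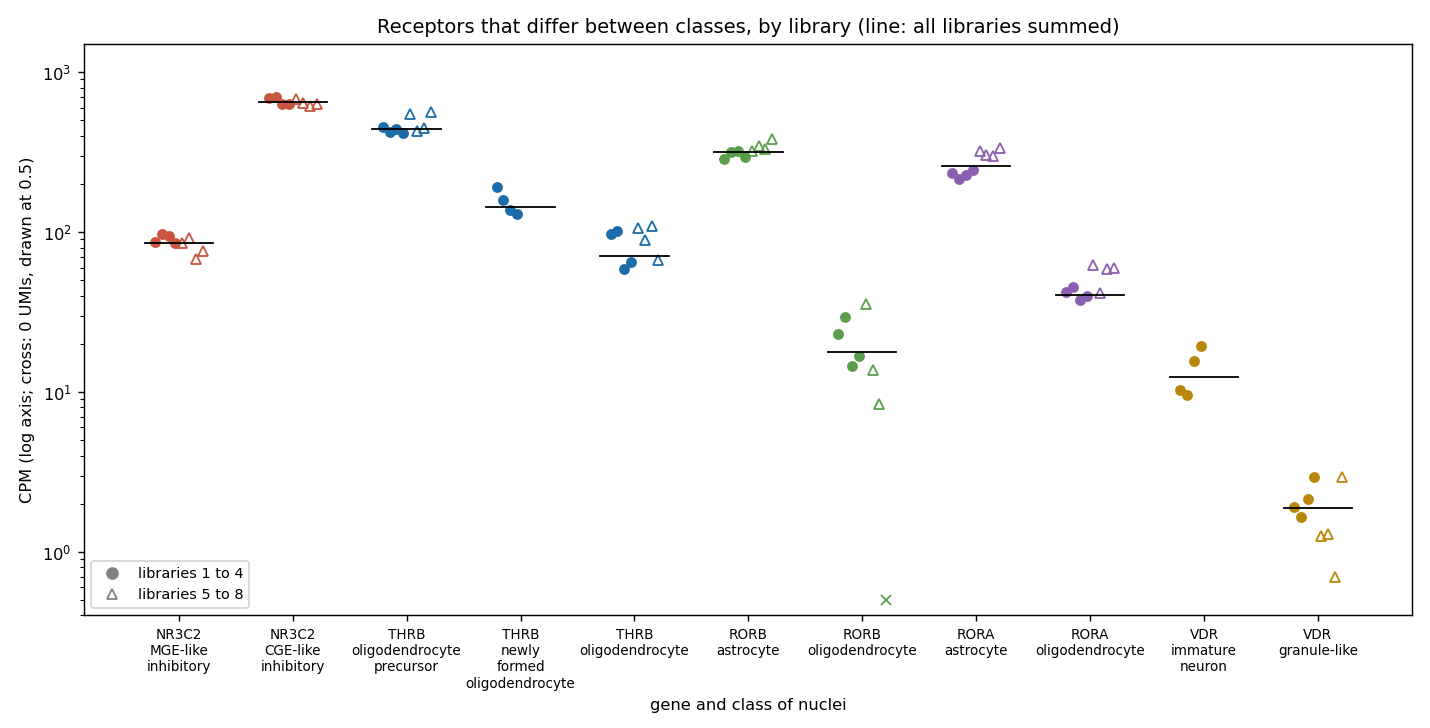
Level (CPM, log axis) of 5 receptors in the classes between which they differ, 1 point per library with at least 50 nuclei, filled circles for libraries 1 to 4, open triangles for libraries 5 to 8, a cross for 0 UMIs and a black line for all libraries summed. For NR3C2, THRB, RORB, RORA and VDR the points of the higher and lower class of each pair do not overlap.

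Ratios of the UMIs of 2 related receptors do not depend on how well each gene is captured once they are compared between classes. Within 1 class they do, so a single ratio is not the relative amount of the 2 mRNAs. NR3C2 to NR3C1 was 7.21 in granule-like (6.95–7.47), 14.7 in CA-like (14.2–15.3) and 10.6 in immature neurons (9.18–12.2). It was 0.70 in MGE-like (0.66–0.75) and 4.80 in CGE-like neurons (4.57–5.05), and 2.99 in astrocytes, 0.88 in oligodendrocyte precursors and 0.76 in microglia or macrophages. Between granule-like and CA-like neurons this ratio was 2.04-fold higher in CA-like neurons, with 4 of 8 libraries in that direction, and it turned in libraries 5 to 8, to a log2 value of 0.89 for granule-like over CA-like, from −1.03 in all libraries. Between excitatory and inhibitory neurons it was 1.59-fold higher in excitatory neurons (1.54–1.65) in 8 of 8 libraries. THRB to THRA was 1.19 in granule-like (1.09–1.29), 9.75 in CA-like (9.26–10.3), 18.8 in MGE-like, 26.1 in CGE-like and 1.70 in immature neurons. It was 8.26 in oligodendrocyte precursors and 0.88 in oligodendrocytes. CA-like neurons had an 8.21-fold higher ratio than granule-like neurons (7.44–9.05), in 8 of 8 libraries and in both sets of libraries. RORB to RORA was 3.70 in other excitatory neurons (3.59–3.82), 0.20 in granule-like, 0.25 in CA-like and 1.23 in astrocytes. It was 22.3-fold higher in excitatory than in inhibitory neurons (20.1–24.8) in 8 of 8 libraries. This does not hold for every excitatory class: granule-like and CA-like neurons were near MGE-like (0.13) and CGE-like (0.25) neurons. Cluster 10 held most of the excitatory RORB.

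**Figure D5:**
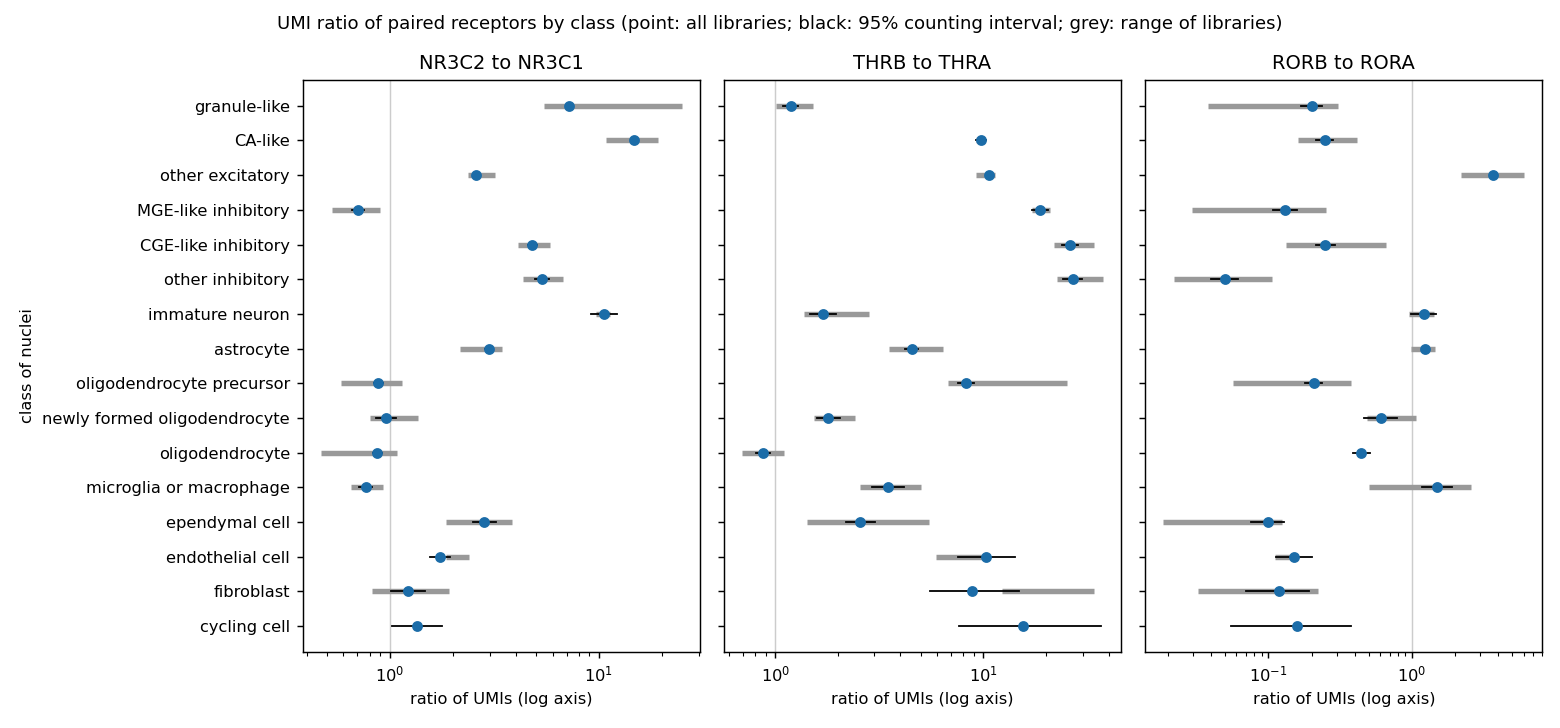
UMI ratio (log axis) of NR3C2 to NR3C1, THRB to THRA and RORB to RORA in each class, with the point for all libraries, the black line for the 95% counting interval and the grey bar for the range of libraries with at least 50 nuclei (not drawn where a library is at 0). THRB to THRA is 1.19 in granule-like and 9.75 in CA-like neurons with grey bars far apart, while the grey bar of NR3C2 to NR3C1 in granule-like neurons (5.45 to 25.0) spans that of CA-like neurons.

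Partner, handling and target genes of these receptors were read from 9 lists. Between granule-like and CA-like neurons RXRA, a shared partner of thyroid and vitamin D receptors, was 7.51-fold higher in CA-like neurons (13.7 against 1.83 CPM), as were the orphan receptor NR4A1 (2.24-fold) and the corepressor NRIP1 (3.75-fold). Of the other nuclear receptors 17 of 30 were measured and 2 called, both higher in CA-like neurons, against 5.86% of all genes higher there and 5.67% in granule-like neurons, with a median log2 ratio of −0.12 against 0.03 over all genes. Of 14 coregulators 1 was called, with a median of −0.13. FKBP5, a chaperone that lowers glucocorticoid receptor affinity and is itself a glucocorticoid target, was 7.45-fold higher in granule-like neurons (176 against 23.6 CPM; 6.91–8.04). SGK1, a kinase induced by both corticosteroid receptors, was 7.54-fold higher in CA-like neurons (617 against 81.8 CPM; 7.19–7.92). GLUL was 2.73-fold higher in granule-like and HSD11B1, which regenerates cortisol, 2.92-fold higher in CA-like neurons. Of 8 measured glucocorticoid targets 2 were thus higher in granule-like neurons, 1 was higher in CA-like neurons and 5 were not called, with a median log2 ratio of 0.55. In thyroid hormone handling the transporter SLC16A10 was 2.16-fold higher in granule-like and the binding protein CRYM 2.04-fold higher in CA-like neurons, of 3 measured. None of 5 measured thyroid targets was called, with a median of −0.04, while THRB itself differed 8.38-fold. Of 8 measured clock genes PER3 was 3.14-fold higher in granule-like and NPAS2 2.07-fold higher in CA-like neurons.

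Between neurons and non-neuronal nuclei, 8 of 11 measured glucocorticoid targets passed the rule in favour of non-neuronal nuclei and 0 in favour of neurons, against 18.7% and 11.9% of all genes measured, with a median log2 ratio of −1.69 against −0.23 over all genes. TSC22D3, an anti-inflammatory glucocorticoid target, had the largest ratio at 16.8-fold (57.3 against 3.41 CPM), and FKBP5 was 13.4-fold higher. NR3C1 itself was 1.59-fold higher there. NR2E1 and PPARA were called higher in non-neuronal nuclei, PPARA 7.23-fold, and NR4A3 and NR4A1 higher in neurons, NR4A3 3.18-fold. None of 14 coregulators was called between these classes. Excitatory neurons had 3 of 5 measured thyroid targets called higher than in inhibitory neurons, against 6.1% of all genes, with a median log2 ratio of 1.04 against −0.11 over all genes. SEMA7A had the largest ratio (2.53-fold), and the thyroid hormone binding protein CRYM was 6.52-fold higher there, and THRB was 1.88-fold higher in inhibitory neurons, short of the rule.

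Among glia, the listed genes were compared between astrocytes and oligodendrocytes, where 16.2% of all genes measured were called higher in astrocytes and 8.64% in oligodendrocytes. Of 18 measured partners and other nuclear receptors 9 were called higher in astrocytes and none higher in oligodendrocytes, with a median log2 ratio of 1.41 against 0.18 over all genes. NR2E1, an orphan receptor of neural progenitors, was 69.0-fold higher (48.5 against 0.703 CPM), and the coactivator PPARGC1A 21.8-fold. Of 5 measured thyroid handling genes 3 were called higher in astrocytes, with the thyroxine transporter SLCO1C1 56.1-fold higher (270 against 4.81 CPM; 45.5–70.0). Of 9 clock genes 6 were called higher in astrocytes, NPAS2 10.2-fold, where RORA and RORB were also higher. The estrogen-related gene GREB1 was 6.54-fold higher in oligodendrocytes than in astrocytes and 4.89-fold higher than in precursors. Between oligodendrocytes and precursors 4 of 12 measured receptors were called higher in precursors, against 12.5% of all genes, RARG with the largest ratio at 55.9-fold from 4 against 121 UMIs (21.3–209).

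CGE-like neurons had 4 of 17 measured receptors called higher than in MGE-like neurons and 0 lower, against 4.63% and 3.64% of all genes, with a median log2 ratio of −0.24 for MGE-like over CGE-like against −0.01 over all genes. NR2E1 had the largest ratio (11.8-fold), with ZBTB16, a glucocorticoid target, 3.99-fold higher, and MGE-like neurons had PPARGC1A 3.21-fold higher. Immature neurons had NR2F1 5.32-fold above granule-like neurons and granule-like neurons had ZBTB16 5.47-fold above immature neurons. Endothelial cells had SLC7A5, a transporter of amino acids and thyroid hormone, 86.4-fold above fibroblasts (1384 against 16 CPM) and NR5A2 at least 4.29-fold higher, against a floor of 3 UMIs for 0 UMIs in fibroblasts. In fibroblasts GREB1 was 14.2-fold higher. Of the vitamin D handling genes none reached 10 CPM in either class of a comparison but CUBN between endothelial cells and fibroblasts. CUBN was 4.66-fold higher in fibroblasts, from 14 UMIs against 7 (1.76–13.6). In total UMI scaling the median of all genes was off 0 by 0.28 or less on the log2 scale in all 8 comparisons, and TMM scaling shifted log2 ratios by 0.34 for granule-like against immature neurons, 0.26 for endothelial cells against fibroblasts, 0.22 for neurons against non-neuronal nuclei and −0.21 for astrocytes against oligodendrocytes. It ended no call but that of THRB in immature neurons, and with it NR3C2 was also called higher in neurons and in granule-like over immature neurons.

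The genes whose levels over the 16 classes were most like each receptor were found among 12286 genes by Pearson r of log2(CPM + 1). NR3C1 was most like JAG1 (r = 0.88), PIKFYVE (0.86) and COMMD10 (0.84), all highest in endothelial cells. NR3C2 was most like LAMA3 (0.82) and ABL2 (0.75). ESR1 was most like DHRS7B (0.91), PDE4C (0.90) and MARVELD2 (0.87), all highest in endothelial cells. THRA was most like AMER2 (0.81), AKTIP (0.80) and ZFAND4 (0.79), and THRB was most like SYN3 (0.92), a synapsin gene, TRERF1 (0.89) and TMEM132D (0.87). RORA was most like MSRB3 (0.90), BCAM (0.89) and GPC4 (0.89). RORB was most like NPNT (0.90), ALDH1A1 (0.81) and EAF2 (0.80), all highest in astrocytes. VDR was most like KLHL35 (0.85), SEMA3A (0.84) and RPGRIP1 (0.84), all highest in immature neurons. These are the best of many genes over classes that share libraries, and none of them is a type marker.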

How the data were processed

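The authors deposited raw counts of UMIs for each gene in each of 59749 barcodes as a single matrix, whose header names Cell Ranger 3.1.0. CASAVA 1.8, Cell Ranger and Seurat appear in the submitters' processing notes. The genome build is not given in the sources used here, and coordinates and sequences were not used. Library totals were 3.58e+07 to 4.70e+07 UMIs. Nuclei with 500 UMIs and 300 genes were kept (58220), and 3576 were removed as doublets by simulated neighbours (50), at 0.8% per 1000 nuclei. The 2000 most variable genes, without the receptors and listed genes, gave 30 principal components and 45 Leiden clusters (resolution 1, leidenalg 0.10.2, scikit-learn 1.9.0). Clusters took names from 155 of 162 markers of 20 types. The scoring rule was settled after the clusters had been seen. In all 5 clusters (2864 nuclei, 5.24%) stayed unnamed, among them the mural one, so the fibroblast class is cluster 37.

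The receptors and lists were chosen with earlier results of these data known. Genes named were all 8 receptors, the 3 genes most like each (1 for NR3C2 is not reported here), the called listed gene of largest fold in each direction, and every called listed gene between granule-like and CA-like neurons; NR2E1, NR4A1 and others outside this rule are named where a count is small. Type markers were left out of list counts, and HSP90AB1, ABCB1, DIO3 and BMAL1 were not analysed here. Ratio intervals are exact conditional binomial, shares Clopper-Pearson (scipy 1.17.1). Alternatives covered scaling, library weights, leaving out libraries, library sets, resolution (0.5 and 2), filters (1000 genes, 20 CPM or no minimum), doublets and free RNA (5%).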

Additional observations from a re-analysis of the deposited data

Results flagged for a closer look

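Of 107 sets of library values examined, 5 had 1 library whose distance from the rest was large for the set's range, where chance alone flags about 1 set in 20. The log2 ratio of RORB for MGE-like over CGE-like neurons was −2.54 in library 6, next to −1.54, and the call held without that library. RORA in CGE-like neurons stood at 45.8 CPM in library 2, next to 61.3 CPM. THRB in astrocytes stood at 215 CPM in library 3, next to 232 CPM. In newly formed oligodendrocytes library 3 had the highest NR3C1 of 4 libraries, 149 CPM next to 138 CPM, and the highest RORA, 35.9 CPM next to 28.6 CPM.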

How the results depend on the processing

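No paired analysis was possible because the barcodes of the 8 libraries are tied to no sample and no test between groups was run. Of the single-receptor log2 ratios under the alternatives, 1225 moved by less than the spread between libraries and 104 by more. Calls that no setting ended were RORB between excitatory and inhibitory neurons, THRB between granule-like and CA-like neurons, NR3C2 between MGE-like and CGE-like neurons, both calls between oligodendrocytes and precursors and all 4 between astrocytes and oligodendrocytes. Libraries 1 and 2, or 3 and 4, alone were tried after seeing the data. In libraries 1 and 2 alone 1 receptor was called between neurons and non-neuronal nuclei (3 in all libraries). In libraries 3 and 4 alone 2 were called between granule-like and CA-like neurons (1 in all), with NR3C1 gained. Between granule-like and immature neurons 0 were called in libraries 5 to 8 (4 in all), where no library held 50 immature nuclei. Between MGE-like and CGE-like neurons 1 was called in libraries 5 to 8, with no doublets removed and with a 20 CPM minimum (2 in all). Between endothelial cells and fibroblasts 3 were called with libraries weighted equally, 2 with no minimum CPM and 0 in libraries 1 to 4, in libraries 1 and 2, with at least 1000 genes per nucleus and with no doublets removed (1 in all), 0 to 1 over leaving out each library, and libraries 3 and 4 alone gave no value. The log2 ratio of NR3C2 to NR3C1 turned from −1.03 to 0.89 for granule-like over CA-like in libraries 5 to 8, and was 1.61 for excitatory over inhibitory neurons in libraries 3 and 4 (0.67 in all). That of THRB to THRA for granule-like over CA-like, −3.04 in all, was −2.84 at resolution 2, −2.66 with at least 1000 genes, −2.75 in libraries 3 and 4 and −3.68 with 5% free RNA removed. That of RORB to RORA was −1.54 for granule-like over CA-like in libraries 5 to 8 (−0.30 in all), and for excitatory over inhibitory neurons 3.83 in libraries 1 and 2 and 5.34 with 5% free RNA removed (4.48 in all). The cause of these moves was not tested. Depth limits the ratios that rest on few UMIs, such as ESR1 in endothelial cells (146) and fibroblasts (6) and VDR in immature neurons (51).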
